A study of Mus musculus with 6 samples.

Results

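The endoplasmic reticulum (ER) is the compartment in which secreted and membrane proteins are made, folded and checked. This report follows a module of 45 genes of ER folding and quality control in RAW 264.7 cells, a mouse macrophage-like line, treated with lipopolysaccharide (LPS) alone or with LPS and PE-CUR. The module was defined by a list of names and not by measured values, though the list was chosen with earlier results of these data known. It covers chaperones, disulfide isomerases, lectin chaperones, stress sensors, ER-associated degradation and the translocon. A row was found for 44 of the 45 genes among the 21604 in the count table, and Derl3 is not analysed here. Ero1a and Ero1b, listed as Ero1l and Ero1lb, were matched through RefSeq synonyms.

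The study addressed curcumin-loaded Pickering emulsions, oil-in-water droplets stabilised by solid particles, in the setting of periodontitis. RNA sequencing was done on 6 libraries of wild-type cells in 2 groups of 3. One group received 100 ng/mL LPS for 24 h. The other received, over the same 24 h, PE-CUR at 2 mg/mL with 100 ng/mL LPS, and is called LPS + PE-CUR here. Both groups carried LPS, so neither the effect of LPS itself nor that of the emulsion without curcumin is part of the comparison. The material is 1 established line, and the labels also give its cell type as a bone marrow macrophage. Whether the 3 libraries of a group are separate cultures is not in the labels, and the p-values cover only the spread between these samples, and that spread may be technical.

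A newly made chain enters the ER through the Sec61 translocon and is held by the Hsp70 protein BiP, encoded by Hspa5, with its J-domain helpers. Disulfide isomerases and the calnexin and calreticulin cycle fold it, and chains that fail are passed through Sel1l and Syvn1 to the cytosol for degradation. When unfolded chains accumulate, the sensors IRE1 (Ern1), ATF6 and PERK (Eif2ak3) raise the transcription of many of these genes, in macrophages as in other secretory cells.

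Total counts were 28530750 to 35276533 per library, and 503 was the lowest count of any of the 44 genes in any library. LPS + PE-CUR libraries had 16701 to 17002 genes with a count and LPS libraries 18210 to 18451. All 11 macrophage markers were detected in the 6 libraries, with a summed level of 11026 to 11642 CPM (a gene's counts divided by the library total, on the CPM scale) with LPS and 9170 to 10234 with LPS + PE-CUR. Most of this sum was Lyz2 (6179.6 to 6905 CPM with LPS and 4328 to 5222 with LPS + PE-CUR). Single markers went both ways, with Adgre1 (F4/80) at 78.0 to 92.8 and 24.0 to 31.1 CPM, Csf1r at 848 to 942 and 1075 to 1324 CPM, and Cd14 at 1131 to 1276 and 1480.5 to 1612 CPM. Summed hepatocyte markers lay at 52.7 to 71.6 CPM with LPS and at 0.217, 0.0568 and 87.4 CPM in LPS + PE-CUR replicates 1 to 3. Summed fibroblast markers lay at 1.31 to 2.35 CPM with LPS and at 0.310, 12.1 and 0.280 CPM in the same 3 libraries. Plasma cell markers lay at 11.1 to 11.8 CPM with LPS and 3.79 to 5.17 CPM with LPS + PE-CUR. Most of the plasma cell sum was the single gene Irf4 (10.5 to 11.5 CPM with LPS and 3.79 to 4.97 with LPS + PE-CUR). The part of these transcripts in the results was not tested. Members higher and lower numbered 6 and 24 without LPS + PE-CUR replicate 3, and 8 and 21 without replicate 2. Without replicate 3 the hepatocyte markers stayed almost only in the LPS libraries, so these counts cannot test their part. In bulk samples fewer cells of a type and less RNA per cell cannot be told apart.

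ER stress sensors act through short promoter elements, so the letters of the members' promoters are shown before their values. RefSeq windows of 300 bases, 250 before and 50 after the gene start (GRCm38.p6, the assembly of mm10), were found for 39 of the 44 genes, and for Atf6, Derl1, Hyou1, Manf and Sec61a1 none was found. The ER stress element (ERSE), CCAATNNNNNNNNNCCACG on either strand, was present in 9 of these 39 genes (23.1%). Over all 32851 windows of that length it was present in 39 (0.119%), and in 18 of the 10343 tested genes with a window (0.174%). These 18 include the 9 members. The element was chosen as one of ER stress genes, so the difference between these shares tests nothing. The copies are printed in the motif's own direction, with the CCAAT and CCACG ends in capitals and the 9 free bases in lower case.
Hspa5: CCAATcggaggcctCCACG
Hsp90b1 upstream copy: CCAATcgcaaggagCCACG
Hsp90b1 downstream copy: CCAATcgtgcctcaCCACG
Dnajc3: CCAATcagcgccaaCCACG
Creld2: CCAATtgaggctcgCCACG
Pdia6: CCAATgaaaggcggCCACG
Ero1b: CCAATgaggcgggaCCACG
Calr: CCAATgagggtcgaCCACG
Canx: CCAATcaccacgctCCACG
Syvn1: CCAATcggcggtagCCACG
Hsp90b1 was the 1 member with 2 exact copies. In the gene's direction the copies began between 212 bases (Hsp90b1, the upstream copy) and 44 bases (Syvn1) before the gene start, and that of Hspa5 began 65 bases before it. ERSE-II, ATTGGNCCACG on either strand, was found in Herpud1 and Dnajb11, and in 12 of all 32851 windows (0.0365%). The core of the unfolded protein response element, TGACGTGG on either strand, was found in Vcp alone among the members and in 222 of all windows (0.676%). TTGCATCA, a composite site of C/EBP and ATF factors, was found on either strand in Herpud1 and in 294 of all windows (0.895%). The core TGACGTGG contains CGTGG, which read on the other strand is the CCACG of the ERSE. No copies of these motifs overlapped in a member. A match is a description of letters and not a site of binding.

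The 250 bases before the start are printed for 3 members whose levels differ below. Hspa5 holds 1 exact ERSE and fell, Hsp90b1 holds 2 and did not pass the test, and Herpud1 holds an ERSE-II and fell. Near matches were not searched for. The Hspa5 letters also hold ccaatcagcggcctccaac, which differs from the ERSE in its last 2 bases. The printed bases run 5′ to 3′ on the gene's strand. Exact ERSE and ERSE-II copies are in capitals and all other bases, TTGCATCA of Herpud1 included, in lower case. The coordinates of these GRCm38.p6 windows are chr2:34771840-34772089 on the plus strand for Hspa5, chr10:86705445-86705694 on the minus strand for Hsp90b1 and chr8:94386179-94386428 on the plus strand for Herpud1.
Hspa5: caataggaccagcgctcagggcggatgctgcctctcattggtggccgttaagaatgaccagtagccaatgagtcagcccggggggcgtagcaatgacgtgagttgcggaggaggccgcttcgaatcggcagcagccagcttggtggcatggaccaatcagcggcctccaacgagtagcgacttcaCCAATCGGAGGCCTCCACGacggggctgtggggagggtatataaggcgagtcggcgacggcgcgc
Hsp90b1: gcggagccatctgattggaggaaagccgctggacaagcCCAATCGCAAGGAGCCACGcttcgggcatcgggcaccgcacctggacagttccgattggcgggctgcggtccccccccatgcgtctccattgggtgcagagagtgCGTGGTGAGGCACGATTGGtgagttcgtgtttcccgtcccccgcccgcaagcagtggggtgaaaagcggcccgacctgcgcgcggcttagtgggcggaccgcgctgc
Herpud1: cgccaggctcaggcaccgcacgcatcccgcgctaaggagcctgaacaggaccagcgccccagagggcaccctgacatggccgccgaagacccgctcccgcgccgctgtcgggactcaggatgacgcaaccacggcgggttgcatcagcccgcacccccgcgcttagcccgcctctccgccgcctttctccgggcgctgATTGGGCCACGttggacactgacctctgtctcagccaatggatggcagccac

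Across the 13014 genes tested by edgeR, 4004 (30.8%) were higher and 4252 (32.7%) lower in LPS + PE-CUR at an adjusted p below 0.05, with a median log2 fold change of -0.03. All 44 members passed the filter on low counts. Of these, 6 were higher (13.6%), 25 were lower (56.8%) and 13 did not pass, with a median log2 fold change of -0.20 and a range from -1.31 to 0.85. The groups did not overlap in 36 of the 44 members, beside 8978 of all tested genes (69.0%). With median-ratio size factors in place of TMM scaling the split of the members was 10 higher and 23 lower. Without the 10 most abundant genes it was 13 higher and 22 lower. Without LPS + PE-CUR replicate 1 it was 11 higher and 23 lower. Of the 31 calls, 26 held under all 15 alternatives, 6 of them higher and 20 lower.

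**Figure D1:**
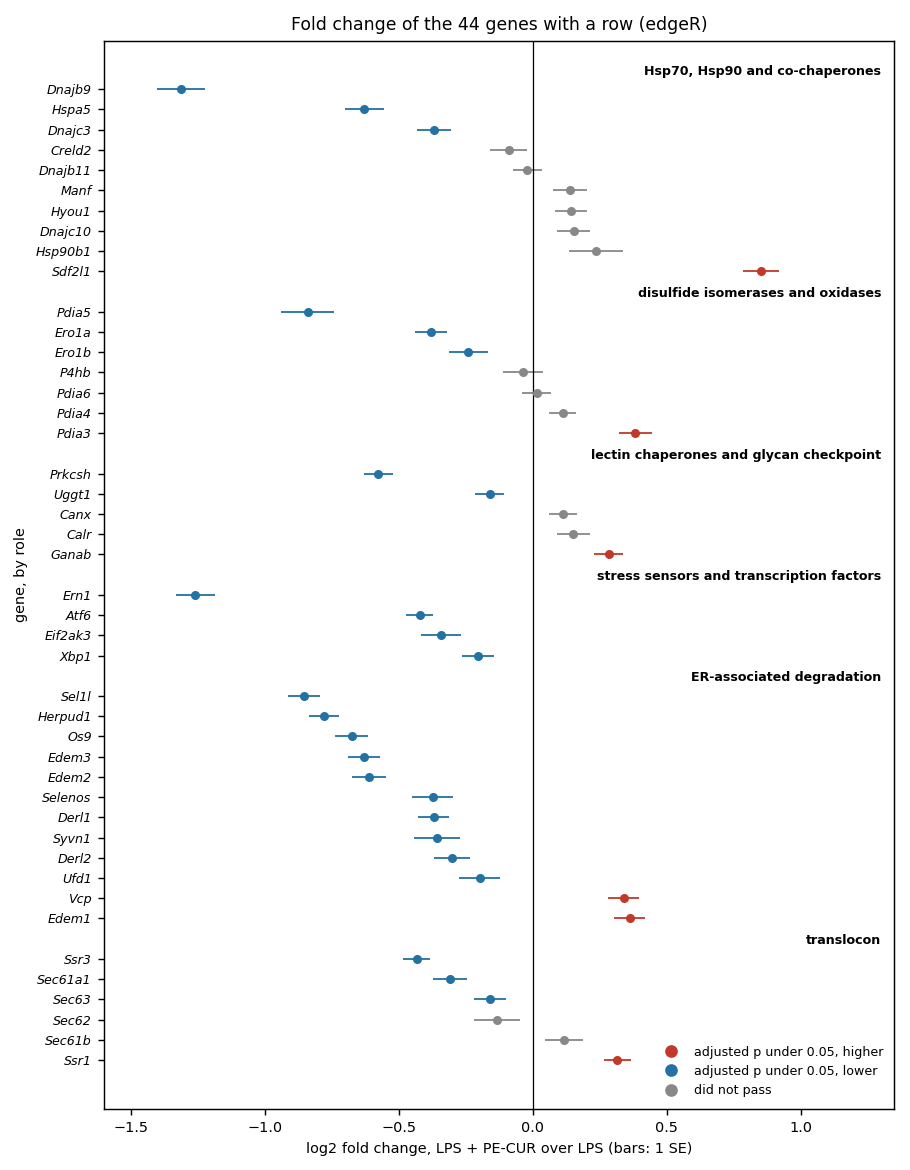
Log2 fold change of LPS + PE-CUR over LPS for the 44 members (points, with bars of 1 SE), grouped by role and coloured by call. Dnajb9 (-1.31) and Ern1 (-1.26) lie farthest to the lower side and Sdf2l1 (0.85) farthest to the higher side.

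The calls were spread unevenly over the roles. All 4 stress sensors and transcription factors were lower (median log2 fold change -0.38), as were 10 of the 12 genes of ER-associated degradation (median -0.37), with the other 2 higher. Of the 10 Hsp70, Hsp90 and co-chaperone genes 1 was higher, 3 were lower and 6 did not pass (median 0.06). Among 7 disulfide isomerases and oxidases 1 was higher and 3 were lower (median -0.04), among 5 lectin chaperones and glycan checkpoint genes 1 and 2 (median 0.11), and among 6 translocon genes 1 and 3 (median -0.15). Without LPS + PE-CUR replicate 1 there were 4 higher calls among the chaperones and 3 in the lectin group, and without LPS replicate 2 or LPS + PE-CUR replicate 2 there were 2 in each and 1 lower call in the lectin group. No test compared one role with another.

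**Figure D2:**
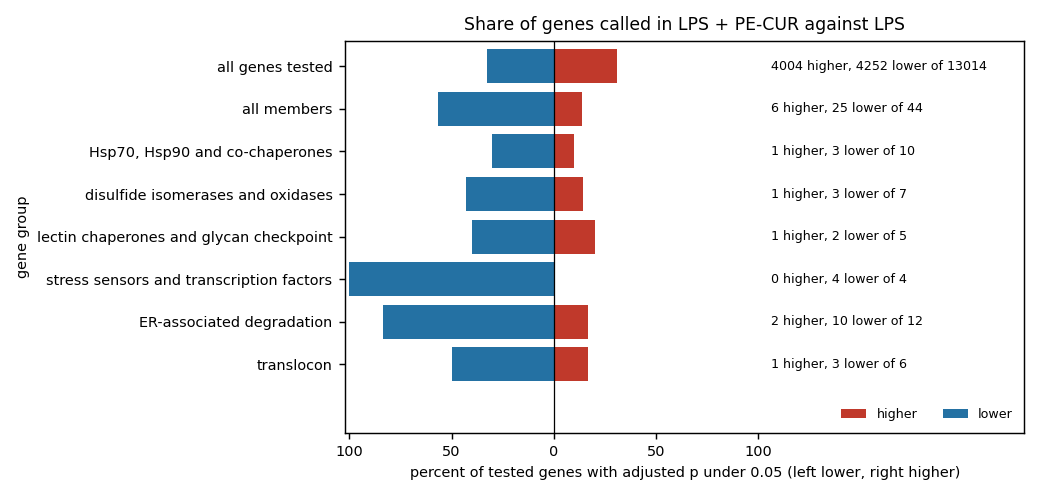
Percent of tested genes called lower (left, blue) and higher (right, red) in LPS + PE-CUR against LPS, for all genes, all members and each role, with the counts at the right. The sensors (4 of 4) and the degradation genes (10 of 12) show the longest bars to the lower side.

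Levels of single genes are given as CPM scaled by TMM factors, in replicates 1, 2 and 3 of each group, and fold changes are LPS + PE-CUR over LPS. BiP, the Hsp70 chaperone of the ER lumen and the partner that holds the sensors inactive, is encoded by Hspa5 at chr2:34772090-34776529. Its level was 1960, 2082 and 2190 CPM with LPS and 1219, 1378 and 1431 CPM with LPS + PE-CUR. Every LPS + PE-CUR library lay below every LPS library. The mean fell from 2077 ± 115 to 1343 ± 110 CPM (SD, n = 3 each), a log2 fold change of -0.63 (SE 0.07, edgeR adjusted p = 2.22e-05).

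Hsp90b1 encodes GRP94, the Hsp90 chaperone of the same compartment. It was measured at 965, 952 and 922 CPM with LPS and at 933, 1274 and 1134 CPM with LPS + PE-CUR. The groups overlapped, because LPS + PE-CUR replicate 1 lay among the LPS libraries while replicates 2 and 3 lay above them. The means of 947 ± 22.0 and 1114 ± 172 CPM (SD, n = 3 each) gave a log2 fold change of 0.23 (SE 0.10) that did not pass (edgeR adjusted p = 0.0711). Without LPS + PE-CUR replicate 1 the value was 0.36 (edgeR adjusted p = 0.000308), and with median-ratio size factors it was 0.25 (edgeR adjusted p = 0.0444). On the per-length scale (FPKM), Hspa5 stood at 2.14, 2.31 and 2.50 times Hsp90b1 with LPS and at 1.38, 1.14 and 1.33 times with LPS + PE-CUR, a pair chosen after the values were seen.

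J-domain helpers of BiP and a partner of theirs carried the extremes of the module. Dnajb9 (ERdj4), which brings clients and IRE1 to BiP, lies at chr12:44205897-44210068 and was measured at 47.6, 56.1 and 56.1 CPM with LPS and 20.3, 21.0 and 23.1 CPM with LPS + PE-CUR. It fell 2.49-fold (edgeR adjusted p = 4.94e-07, log2 fold change -1.31, SE 0.09), the lowest fold change among the 44. Sdf2l1, a component of the complex of BiP with J-domain proteins, lies at chr16:17130138-17132383 and was measured at 60.9, 66.3 and 57.7 CPM with LPS and 114, 107 and 113 CPM with LPS + PE-CUR. It rose 1.80-fold (edgeR adjusted p = 1.37e-06, log2 fold change 0.85, SE 0.07), the highest of the 44. The groups stood apart in both genes and in opposite directions. Per length, Sdf2l1 was 1.96 ± 0.212 times Dnajb9 with LPS and 8.75 ± 0.639 times with LPS + PE-CUR (SD, n = 3 each), again a pair chosen after the values were seen. Dnajc3 (P58IPK), the co-chaperone that also restrains PERK, fell from 90.0 ± 1.63 to 69.6 ± 4.15 CPM (edgeR adjusted p = 0.000379, log2 fold change -0.37).

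Hyou1, Dnajc10, Manf, Dnajb11 and Creld2 did not pass. Means were 452 and 499 CPM for Hyou1 (GRP170, a nucleotide exchange factor of BiP), 173 and 192 for Dnajc10 (ERdj5, a reductase with a J domain) and 193 and 212 for Manf, a secreted BiP cofactor. Dnajb11 (ERdj3) lay at 170 and 168 CPM, and Creld2 at 60.2 and 56.6 CPM. Under at least 1 alternative Hyou1, Dnajc10 and Manf passed as higher. The largest values with a library left out were 0.21 for Hyou1 (without LPS + PE-CUR replicate 2, edgeR adjusted p = 0.0207), 0.22 for Dnajc10 (without LPS + PE-CUR replicate 1, edgeR adjusted p = 0.00605) and 0.19 for Manf (without LPS + PE-CUR replicate 1, edgeR adjusted p = 0.0313). Manf also passed without LPS replicate 2, at 0.18 (edgeR adjusted p = 0.0420).

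**Figure D3:**
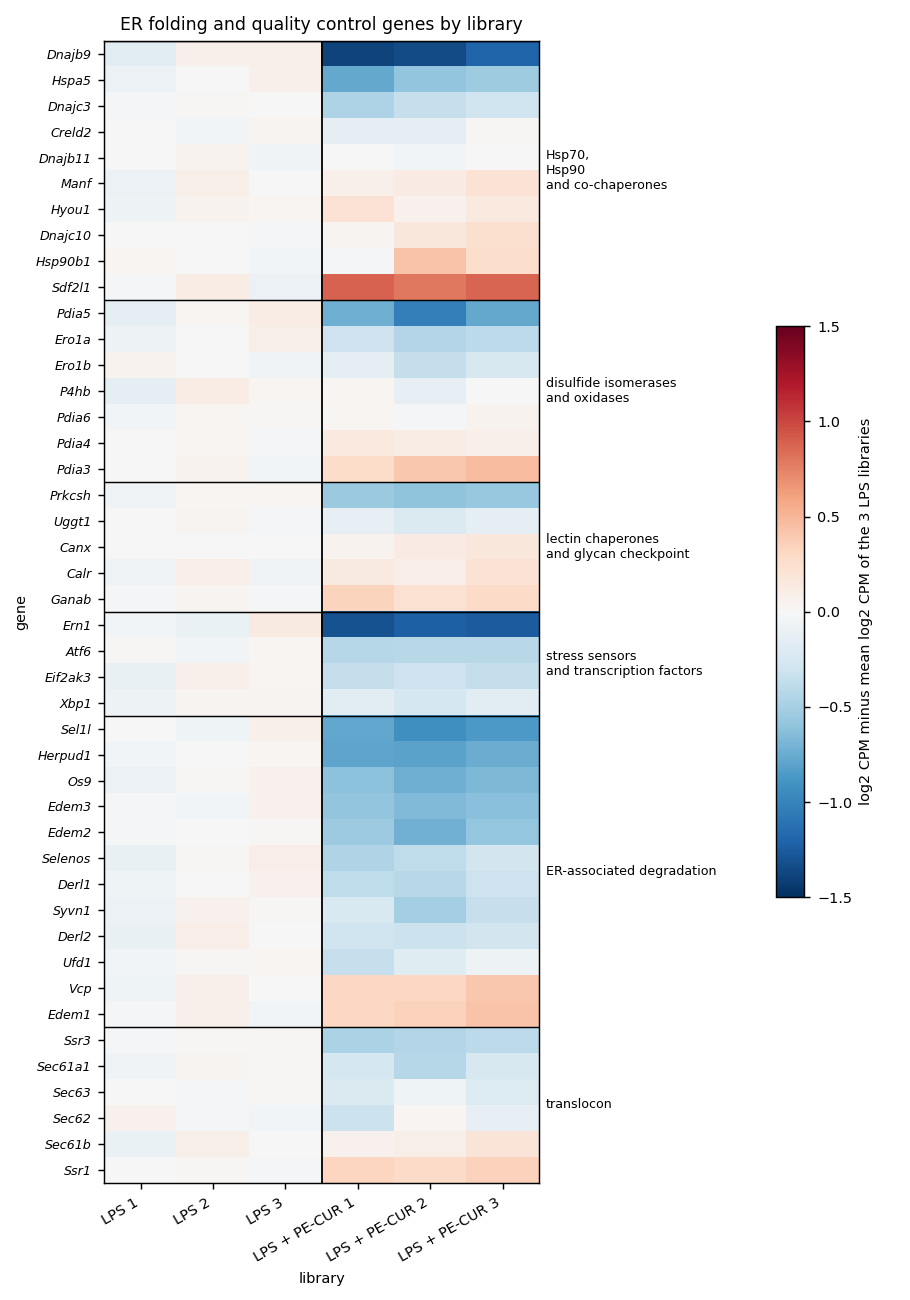
Log2 CPM of each of the 44 members in each of the 6 libraries minus the mean of its 3 LPS libraries, ordered by role, with blue below and red above that mean. The sensor and degradation genes are blue in the 3 LPS + PE-CUR libraries, except Edem1 and Vcp, which are red.

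Disulfide isomerases make and rearrange the disulfide bonds of new chains, and Ero1 oxidases recharge them. Pdia5, a little-studied isomerase that acts on ATF6, was measured at 28.2, 31.7 and 33.4 CPM with LPS and 18.7, 15.2 and 18.2 CPM with LPS + PE-CUR. It fell 1.79-fold with no overlap (edgeR adjusted p = 2.80e-05, log2 fold change -0.84, SE 0.10). Pdia3 (ERp57), the isomerase that works with calnexin and calreticulin, rose from 687 ± 21.0 to 896 ± 59.5 CPM (edgeR adjusted p = 0.000271, log2 fold change 0.38). Ero1a, the main oxidase, fell from 490 ± 27.4 to 376 ± 16.8 CPM (edgeR adjusted p = 0.000236, log2 fold change -0.38). Its relative Ero1b was measured at 58.5, 56.1 and 54.1 CPM with LPS and 51.1, 44.03 and 47.7 CPM with LPS + PE-CUR. Ero1b also fell (edgeR adjusted p = 0.0132, log2 fold change -0.24, SE 0.07), and its call ended without LPS replicate 1 (-0.21, edgeR adjusted p = 0.0535) and without LPS + PE-CUR replicate 2 (-0.15, edgeR adjusted p = 0.114). The 3 abundant isomerases Pdia4 (213 and 230 CPM), Pdia6 (375 and 379 CPM) and P4hb (1049 and 1022 CPM) did not pass. Pdia4 passed as higher with no filter (0.17, edgeR adjusted p = 0.0434). It also passed without the 10 most abundant genes (0.14, edgeR adjusted p = 0.0325).

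In the calnexin and calreticulin cycle, glucosidase II trims the glycan that marks a chain for another round. Its catalytic subunit is Ganab and its regulatory subunit is Prkcsh. Prkcsh was measured at 272, 288 and 287 CPM with LPS and 192, 186 and 190 CPM with LPS + PE-CUR, and fell (edgeR adjusted p = 4.15e-06, log2 fold change -0.58, SE 0.05). Ganab rose from 226 ± 6.17 to 276 ± 9.95 CPM (edgeR adjusted p = 0.000859, log2 fold change 0.28). The transcripts of the subunits of 1 enzyme thus went opposite ways, and per length Ganab was 0.406 ± 0.0139 of Prkcsh with LPS and 0.736 ± 0.0135 with LPS + PE-CUR (SD, n = 3 each). Uggt1, the glucosyltransferase that returns misfolded chains to the cycle, was measured at 210, 216 and 207 CPM with LPS and 195, 181 and 190 CPM with LPS + PE-CUR. Its small fall (edgeR adjusted p = 0.0221, log2 fold change -0.16, SE 0.05) ended as a call without LPS replicate 2 (-0.14, edgeR adjusted p = 0.0685) and without LPS + PE-CUR replicate 2 (-0.10, edgeR adjusted p = 0.214). The lectins themselves did not pass, with means of 619 and 687 CPM for Calr (edgeR adjusted p = 0.0517) and 907 and 981 CPM for Canx (edgeR adjusted p = 0.0908). Without LPS + PE-CUR replicate 1 both passed, Calr at 0.18 (edgeR adjusted p = 0.0425) and Canx at 0.16 (edgeR adjusted p = 0.0341). Calr also passed without LPS replicate 2 (0.20, edgeR adjusted p = 0.0200) and without LPS + PE-CUR replicate 2 (0.21, edgeR adjusted p = 0.0244).

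The 3 sensors and the transcription factor Xbp1 were all lower with LPS + PE-CUR. Ern1 encodes IRE1, the kinase and ribonuclease that splices Xbp1 messenger RNA, and lies at chr11:106397620-106487796. It was measured at 108, 104 and 122 CPM with LPS and 44.8, 47.6 and 46.8 CPM with LPS + PE-CUR, with a wide gap between the groups. It fell 2.40-fold (edgeR adjusted p = 2.00e-07, log2 fold change -1.26, SE 0.07). Atf6, the membrane-bound factor that is cleaved in the Golgi, was measured at 468, 448 and 473 CPM with LPS and 344, 346 and 347 CPM with LPS + PE-CUR. It fell with no overlap (edgeR adjusted p = 3.03e-05, log2 fold change -0.42, SE 0.05).

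Eif2ak3 encodes PERK, the kinase that slows translation through eIF2α. It was measured at 33.8, 38.7 and 37.4 CPM with LPS and 28.6, 29.5 and 28.5 CPM with LPS + PE-CUR, and fell (edgeR adjusted p = 0.00197, log2 fold change -0.34, SE 0.07). Xbp1, whose spliced form is the active factor of the IRE1 arm, was measured at 145, 156 and 157 CPM with LPS and 135, 127 and 135 CPM with LPS + PE-CUR. Its fall was the smallest of the 4 (edgeR adjusted p = 0.0105, log2 fold change -0.21, SE 0.06), and its call ended without LPS replicate 3 (-0.19, edgeR adjusted p = 0.0501) and without LPS + PE-CUR replicate 2 (-0.14, edgeR adjusted p = 0.104). Counts per gene do not separate spliced from unspliced Xbp1, and they do not show the activity of a sensor. Summed over the 4 genes the level was 763 ± 22.5 CPM with LPS and 553 ± 4.20 CPM with LPS + PE-CUR, 0.725 of the LPS level. Most of each sum was Atf6 alone, at 463 and 346 CPM.

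**Figure D4:**
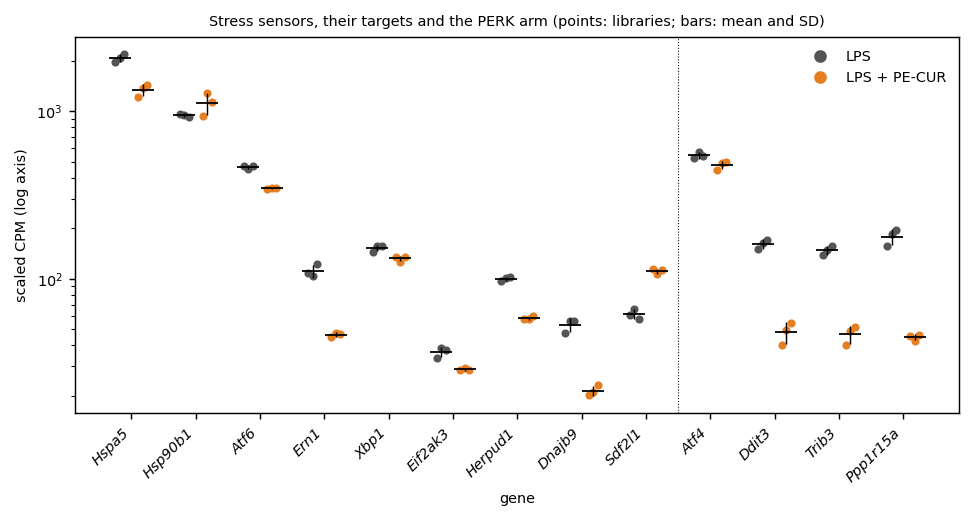
Scaled CPM (log axis) in each of the 6 libraries for 9 members and, right of the dotted line, 4 genes of the PERK and ATF4 arm, with points for libraries and bars for mean and SD. Ern1, Dnajb9 and Herpud1 lie lower with LPS + PE-CUR with no overlap, Sdf2l1 lies higher, and the groups of Hsp90b1 overlap.

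ER-associated degradation extracts failed chains to the cytosol. At its centre stand the ubiquitin ligase Syvn1 (HRD1), its partner Sel1l and the adaptor Herpud1. Sel1l, at chr12:91806043-91849157, was measured at 343, 329 and 363 CPM with LPS and 201, 183 and 189 CPM with LPS + PE-CUR. It fell 1.81-fold (edgeR adjusted p = 6.60e-07, log2 fold change -0.85, SE 0.06), the lowest fold change of this role. Herpud1, whose ERSE-II is printed above, was measured at 96.7, 100 and 102 CPM with LPS and 57.5, 57.2 and 59.6 CPM with LPS + PE-CUR, and fell 1.72-fold (edgeR adjusted p = 8.95e-07, log2 fold change -0.78, SE 0.06). Syvn1, whose span overlaps Mrpl49 (27.7 and 37.1 CPM, higher), fell from 40.2 ± 2.11 to 31.4 ± 2.996 CPM (edgeR adjusted p = 0.00335, log2 fold change -0.36).

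The lectin Os9 hands glycoproteins to this ligase, and the Edem proteins trim the mannose that marks them. Os9 was measured at 152, 162 and 168 CPM with LPS and 104, 96.6 and 100 CPM with LPS + PE-CUR (edgeR adjusted p = 3.94e-06, log2 fold change -0.68, SE 0.06). Edem2 was measured at 91.4, 93.3 and 94.5 CPM with LPS and 63.7, 56.7 and 62.4 CPM with LPS + PE-CUR (edgeR adjusted p = 1.04e-05, log2 fold change -0.61, SE 0.06). Edem3 was measured at 95.6, 93.9 and 102 CPM with LPS and 64.1, 61.4 and 62.6 CPM with LPS + PE-CUR (edgeR adjusted p = 5.18e-06, log2 fold change -0.63, SE 0.06). All 3 fell with no overlap between the groups. Their relative Edem1 rose, from 534 ± 25.4 to 686 ± 29.7 CPM (edgeR adjusted p = 0.000283, log2 fold change 0.36). The RefSeq span of Edem1 overlaps Arl8b (270 and 242 CPM, not passed), and both genes lie on the plus strand. Counting by strand could therefore not separate reads from their shared bases. Per length, Edem1 was 2.23 ± 0.109 times Edem2 with LPS and 4.38 ± 0.329 times with LPS + PE-CUR, and 1.65 ± 0.156 against 3.84 ± 0.290 times Sel1l (SD, n = 3 each), pairs chosen after the values were seen.

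The derlins form the channel through which chains leave, and Vcp (p97) is the ATPase that pulls them out with Ufd1. Derl1 fell from 226 ± 9.64 to 175 ± 6.08 CPM (edgeR adjusted p = 0.000182, log2 fold change -0.37) and Derl2 from 71.8 ± 5.22 to 58.3 ± 0.900 CPM (edgeR adjusted p = 0.00250, log2 fold change -0.30). Selenos, a selenoprotein that ties the derlins to p97, fell from 57.6 ± 4.30 to 44.5 ± 2.77 CPM (edgeR adjusted p = 0.00141, log2 fold change -0.37). Vcp rose from 297 ± 15.7 to 376 ± 13.9 CPM (edgeR adjusted p = 0.000417, log2 fold change 0.34), so the ATPase went the other way from the membrane proteins of the route. Ufd1 was measured at 52.7, 55.1 and 55.5 CPM with LPS and 42.8, 48.0 and 51.6 CPM with LPS + PE-CUR (edgeR adjusted p = 0.0421, log2 fold change -0.20, SE 0.08). That call ended with any library but LPS + PE-CUR replicate 3 left out (-0.22 to -0.11, edgeR adjusted p = 0.0595 to 0.198), and the overlapping gene Cdc45 rose from 19.3 ± 1.32 to 47.1 ± 6.78 CPM.

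The translocon group held the Sec61 channel, the Sec62 and Sec63 helpers and the translocon-associated subunits Ssr1 and Ssr3. Sec61a1, the pore subunit, fell from 302 ± 10.5 to 244 ± 16.8 CPM (edgeR adjusted p = 0.00134, log2 fold change -0.31), while Sec61b did not pass (56.4 and 61.2 CPM). Ssr3 fell from 481 ± 7.52 to 356 ± 9.46 CPM (edgeR adjusted p = 2.58e-05, log2 fold change -0.43), and Ssr1 rose from 340 ± 4.87 to 423 ± 9.23 CPM (edgeR adjusted p = 0.000242, log2 fold change 0.32). These 2 subunits of 1 complex again moved in opposite directions. Ssr2 (206 and 222 CPM) and Ssr4 (94.8 and 89.7 CPM), which are outside the module, did not pass. Sec63, the J-domain protein that couples BiP to the channel, was measured at 165, 163 and 168 CPM with LPS and 142, 158 and 144 CPM with LPS + PE-CUR (edgeR adjusted p = 0.0356, log2 fold change -0.16, SE 0.06). Its call ended with any library but LPS + PE-CUR replicate 2 left out (-0.17 to -0.11, edgeR adjusted p = 0.0587 to 0.134). Sec62 did not pass (101 and 92.1 CPM), but passed as lower with library size alone (-0.19, edgeR adjusted p = 0.0487).

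Levels of different genes were compared per length, in FPKM. With LPS the highest means were Hspa5 at 809 ± 48.2 FPKM, P4hb at 374 ± 31.9, Hsp90b1 at 350 ± 6.53, Calr at 324 ± 17.7 and Pdia3 at 265 ± 6.82. With LPS + PE-CUR they were Hspa5 at 503 ± 30.9 FPKM, Hsp90b1 at 395 ± 52.4, P4hb at 351 ± 27.5, Calr at 347 ± 16.7 and Pdia3 at 332 ± 15.8 (SD, n = 3 each). Hspa5 stood above the others in both groups, while the levels of Hsp90b1, P4hb and Calr with LPS + PE-CUR lay within their spread of one another. Eif2ak3 was the lowest of the 44 in both, at 7.67 and 5.81 FPKM. Sums over genes were taken on both scales. In scaled CPM all members together came to 13710 ± 360 with LPS and 12844 ± 376 with LPS + PE-CUR, 0.937 of the LPS level. By role the ratio was 0.885 for the chaperones, 1.02 for the isomerases, 1.03 for the lectin group, 0.911 for degradation and 0.916 for the translocon. The chaperone sum fell from 4276 to 3786 CPM, and Hspa5 within it from 2077 to 1343 CPM. The fall of Hspa5 was larger than that of the chaperone sum, so the other chaperones together did not fall. Hspa5 also made up most of the fall of the all-member sum. In FPKM, which counts each gene per length, the ratio was 0.910 for all members, 0.869 for the chaperones, 1.003 for the isomerases, 0.985 for the lectin group, 0.740 for the sensors, 0.852 for degradation and 0.857 for the translocon. The lectin group was thus above 1 on one scale and below it on the other.

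Set against the promoter letters, none of the 9 genes with an ERSE was higher and 4 were lower (Hspa5, Dnajc3, Syvn1 and Ero1b), with a median log2 fold change of -0.09, beside 30.8% higher and 32.7% lower over all tested genes. Hsp90b1, Calr and Canx of these 9 passed as higher without LPS + PE-CUR replicate 1, with no filter on low counts, and without the 10 most abundant genes. The call of Ero1b ended without LPS replicate 1, without LPS + PE-CUR replicate 2 and with no filter. Of the 30 genes whose window held no exact ERSE, 6 were higher and 18 lower, with a median of -0.20. The 9 spanned -0.63 for Hspa5 to 0.23 for Hsp90b1, and the element was found in no window of Ern1, Dnajb9, Sel1l or Sdf2l1. The absence of a match says only that these exact letters are not in the window, and near matches were not counted.

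**Figure D5:**
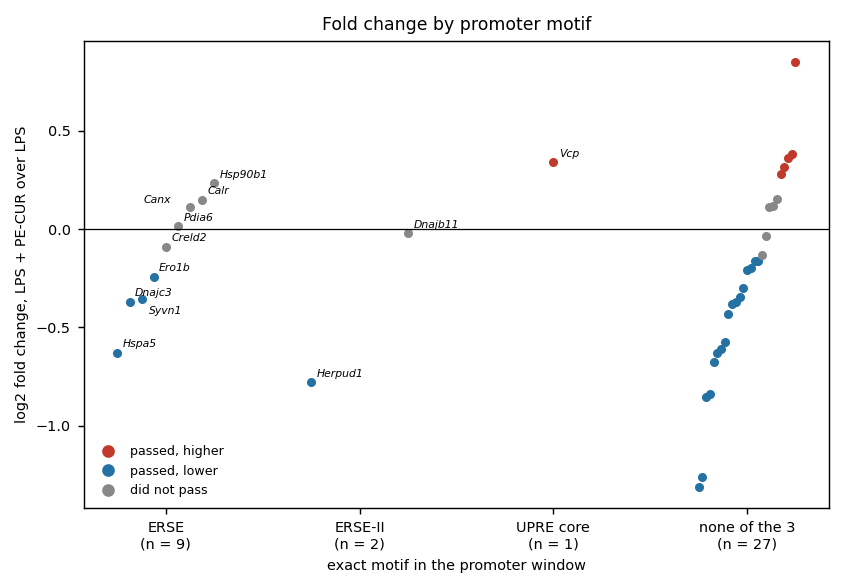
Log2 fold change of LPS + PE-CUR over LPS for the 39 members with a promoter window, by the exact motif in it, coloured by call. The 9 ERSE genes run from Hspa5 (-0.63) to Hsp90b1 (0.23), of the 2 with an ERSE-II Herpud1 fell, and Vcp with the core element rose.

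Genes of the same pathways outside the module were counted from lists drawn up for this report, and each count stands beside 30.8% higher and 32.7% lower over all tested genes. The list of the PERK and ATF4 arm covers genes of the translation-control branch, with Atf4 and Eif2s1 among them. Of its 16 tested genes 12 fell (75%) and 1 rose (median log2 fold change -0.50). The other 3, Asns (401 and 375 CPM), Nupr1 (41.9 and 41.5 CPM) and Bbc3 (34.4 and 36.3 CPM), did not pass. Ddit3 (CHOP), the pro-apoptotic factor of this arm, fell from 162 ± 10.8 to 48.0 ± 7.16 CPM (edgeR adjusted p = 1.31e-06, log2 fold change -1.75). Ppp1r15a (GADD34), which reverses the phosphorylation of eIF2α, fell from 179 ± 20.3 to 44.99 ± 1.95 CPM (edgeR adjusted p = 4.69e-08, log2 fold change -1.99). Trib3, a CHOP target, fell from 148 ± 8.75 to 46.6 ± 5.86 CPM, and Gadd45a, a stress and DNA damage gene, from 40.7 ± 4.20 to 5.53 ± 0.506 CPM. The factor Atf4 itself fell from 543 ± 24.7 to 479 ± 28.1 CPM (edgeR adjusted p = 0.0233, log2 fold change -0.18). Without LPS replicate 2, LPS replicate 3, LPS + PE-CUR replicate 1 or LPS + PE-CUR replicate 2 the call of Atf4 ended (-0.15, -0.19, -0.12 and -0.17, with edgeR adjusted p = 0.0861, 0.0553, 0.121 and 0.0725). Eif2s1, which encodes eIF2α, was the 1 gene of the list that rose (163 ± 7.62 to 236 ± 14.3 CPM).

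Of 35 further genes of ER-associated degradation, 23 fell (65.7%) and 4 rose (11.4%, median -0.40). Those that fell included the ligase Rnf185 (40.8 ± 2.07 to 19.2 ± 0.453 CPM), the selenoprotein Selenok (105 ± 5.80 to 61.5 ± 0.794 CPM) and the conjugating enzyme Ube2g2 (98.1 ± 5.40 to 55.5 ± 2.39 CPM). Bag6, a cytosolic holdase for extracted chains, rose from 127 ± 6.57 to 202 ± 10.7 CPM, and Ubxn8 from 9.06 ± 1.60 to 14.2 ± 1.98 CPM.

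Among 17 regulators of the unfolded protein response 6 rose and 6 fell (median 0.02). Wfs1, a membrane protein that restrains ATF6, fell from 14.7 ± 1.34 to 3.28 ± 0.194 CPM. Crebrf fell from 42.1 ± 2.67 to 15.0 ± 2.01 CPM, and Map3k5 (ASK1), the kinase downstream of IRE1, from 55.1 ± 3.42 to 27.2 ± 0.637 CPM. Mbtps2, the protease that releases ATF6, rose from 86.8 ± 3.44 to 123 ± 4.23 CPM, and Bax rose from 158 ± 2.49 to 202 ± 7.31 CPM.

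Of 15 other isomerases and oxidases 4 rose and 5 fell (median 0.02). Tmx4, a membrane-bound thioredoxin-like protein, rose from 128 ± 6.16 to 378 ± 18.8 CPM (edgeR adjusted p = 3.18e-08, log2 fold change 1.56) and Erp29 from 99.5 ± 4.29 to 151 ± 7.11 CPM. Tmx3 fell from 219 ± 16.1 to 163 ± 14.1 CPM, Erp44 from 123 ± 3.84 to 103 ± 2.23 CPM and P4ha1, a collagen prolyl hydroxylase subunit, from 312 ± 13.9 to 268 ± 9.07 CPM. The call of P4ha1 ended without LPS + PE-CUR replicate 2 (-0.16, edgeR adjusted p = 0.0584).

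Of 17 other chaperones and prolyl isomerases 2 rose and 8 fell (median -0.02), and the number that rose was 1 without LPS replicate 1 or 3 and 4 without LPS + PE-CUR replicate 3. Lrpap1, the chaperone of LDL receptor family proteins, fell from 147 ± 12.8 to 72.6 ± 7.89 CPM, Hspa13 from 83.3 ± 3.45 to 61.2 ± 4.10 CPM and Cdnf from 3.01 ± 0.407 to 1.15 ± 0.256 CPM. Sil1, a nucleotide exchange factor of BiP, rose from 25.8 ± 0.974 to 33.7 ± 2.98 CPM. Tor1a rose from 42.2 ± 4.09 to 50.4 ± 2.55 CPM, a call that ended without LPS replicate 1 (0.22, edgeR adjusted p = 0.0667) and without LPS replicate 3 (0.21, edgeR adjusted p = 0.0746).

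Glycan assembly and transport into the ER gave mixed lists. Of 28 genes of the oligosaccharyltransferase and N-glycan assembly 9 rose (32.1%) and 10 fell (35.7%), shares near those of all tested genes (median -0.04), and 5 fell without LPS + PE-CUR replicate 2. They included the mannosyltransferase Alg2 (69.2 ± 4.81 to 28.3 ± 2.28 CPM), Alg10b (221 ± 5.00 to 146 ± 11.1 CPM) and Dpagt1 (56.8 ± 5.18 to 43.5 ± 1.40 CPM), which fell. Mogs, the glucosidase I that acts before glucosidase II, rose from 50.1 ± 0.725 to 93.0 ± 2.85 CPM, and Alg6 from 14.5 ± 1.68 to 23.4 ± 1.89 CPM. Of 28 other translocon, signal peptidase and signal recognition genes 7 rose and 12 fell (median -0.04). The membrane insertion genes Emc3 (95.6 ± 5.40 to 59.6 ± 2.57 CPM) and Emc7 (99.1 ± 5.25 to 69.3 ± 4.14 CPM) and the translocon partner Tram1 (237 ± 7.18 to 168 ± 3.40 CPM) fell. The signal peptidase subunit Spcs3 (261 ± 7.52 to 404 ± 31.6 CPM) and Emc6 (27.2 ± 1.79 to 40.5 ± 1.95 CPM) rose.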

How the data were processed

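Gene expression was measured by RNA sequencing of total RNA in 6 libraries, 3 per group. The authors deposited whole-number counts per gene symbol and FPKM values. The submitters' processing notes name mm10, HTSeq, fastp, DESeq2 and SAMtools without versions. For the aligner, the annotation and the use of strand the answer is not given in the sources used here, and overlapping genes may share reads. The deposited FPKM values equalled a rescaled count in 100% of 105337 values above 0 (relative tolerance 0.0001), so they are no second measurement.

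Columns were assigned to samples by title. Counts were fitted in R 4.3.3 with edgeR 4.0.16 (filterByExpr, TMM factors, robust quasi-likelihood test, group as the only term, two-sided), and p-values were adjusted by the Benjamini-Hochberg method over all 13014 tested genes at 0.05. SE was taken from the fold change and the square root of F. The script was tested on simulated counts. Alternatives used DESeq2 1.42.0, limma 3.58.1 on log2 FPKM, other scalings and filters, and each library left out. Members, lists and motifs were chosen with earlier results of these data known. Values in every library are given for Hspa5, Hsp90b1, Ern1, Xbp1, Atf6, Eif2ak3, members that passed with a log2 fold change of at least 0.5 in size, and members whose call ended under an alternative; members that gained a call under an alternative are given by their means. From each pathway list up to 3 passing genes with the smallest p in the majority direction and 2 in the other are named, with Atf4, Ddit3, Trib3 and Ppp1r15a. Total counts of 28530750 to 35276533 put every member at 503 counts or more per library. Ratios of gene pairs were added after the values were seen.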

Additional observations from a re-analysis of the deposited data

How the results depend on the processing

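No called member or called gene named here changed direction under the 15 alternatives run, while Dnajb11, Pdia6 and P4hb, which did not pass, took both signs. The median of all genes (-0.03) was 0.0030 without the 10 most abundant genes. All genes split into 4457 higher and 4355 lower with no filter, 4219 and 4002 without the abundant genes and 4068 and 3972 with DESeq2, against 4004 and 4252. Members called higher (6) became 10 with median-ratio size factors and with DESeq2. They became 13 with no filter and without the 10 most abundant genes, and ranged from 6 to 11 with 1 library left out (11 without LPS + PE-CUR replicate 1). Members called lower ranged from 20 to 26. With DESeq2 the lower calls of Uggt1, Ufd1 and Sec63 ended (DESeq2 adjusted p = 0.058, 0.0861 and 0.0703). The same 3 calls ended without the 10 most abundant genes, and those of Ufd1 and Sec63 with median-ratio size factors. With no filter the calls of Ero1b, Uggt1, Xbp1, Ufd1 and Sec63 ended. The members' median log2 fold change (-0.20) was -0.26 with library size alone, -0.15 with no filter and -0.24 with a mean of at least 1 CPM. It was -0.25 on log2(FPKM + 1), -0.26 on log2(FPKM + 0.1) and -0.17 without the 10 most abundant genes. With no filter the median of all genes was -0.10.

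Among Hsp70, Hsp90 and co-chaperones 1 higher call became 4 with median-ratio size factors and DESeq2, 5 with no filter and without the abundant genes, and 1 to 4 with a library left out (4 without LPS + PE-CUR replicate 1, 2 without LPS replicate 2 or LPS + PE-CUR replicate 2). Isomerases called higher (1) became 2 with no filter and without the abundant genes. Lectin genes called higher (1) became 2 with median-ratio size factors and DESeq2 and 3 with no filter and without the abundant genes (1 to 3 with a library left out, 3 without LPS + PE-CUR replicate 1, 2 without LPS replicate 2 or LPS + PE-CUR replicate 2), and those called lower (2) became 1 with no filter, DESeq2, the replicate block and without the abundant genes (1 to 2 with a library left out, 1 without LPS replicate 2 or LPS + PE-CUR replicate 2). Other chaperones called higher (2) became 1 with library size alone and 4 with no filter (1 to 4 with a library left out, 1 without LPS replicate 1 or 3, 4 without LPS + PE-CUR replicate 3). Oligosaccharyltransferase genes called lower (10) became 6 with no filter and 5 to 9 with a library left out, 5 without LPS + PE-CUR replicate 2. Other degradation genes called higher (4) became 2 with library size alone and with the replicate block. ER-phagy receptors called higher (1) became 2 with no filter and without the abundant genes, and ranged from 1 to 2 with a library left out, 2 without LPS + PE-CUR replicate 2.

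Replicate numbers are shared between the groups, but same-numbered libraries did not deviate together (correlations of -0.178 to -0.0480). With 3 libraries per group these values cannot decide whether same-numbered libraries were handled together. The main fit used no pairing. With the replicate block 6 members were higher and 23 lower, with 3708 and 3953 over all genes, and Uggt1 and Sec63 lost their calls.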

Other observations

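Outside the folding module, genes that carry cargo out of the ER and genes that remove parts of it were counted in the same fit. Of 22 genes of the COPII coat and its cargo receptors, which bud vesicles from the ER, 10 fell and 3 rose (median log2 fold change -0.10). Sec24d, a cargo-binding coat subunit, fell from 93.3 ± 4.74 to 49.1 ± 1.99 CPM (SD, n = 3 each), Sec23a, its inner-coat partner, from 72.4 ± 6.24 to 39.7 ± 0.860 CPM and the cargo receptor subunit Mcfd2 from 91.9 ± 6.62 to 48.9 ± 4.17 CPM. The cargo receptors Tmed10 (167 ± 7.42 to 278 ± 8.07 CPM) and Lman2 (127 ± 3.37 to 161 ± 6.10 CPM) rose.

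Of 8 receptors of ER-phagy, the removal of ER by autophagy, 5 fell and 1 rose (median log2 fold change -0.44), and 2 rose without LPS + PE-CUR replicate 2. Tex264 fell from 90.8 ± 6.12 to 41.5 ± 2.42 CPM, Retreg3 from 67.4 ± 2.88 to 40.8 ± 2.56 CPM and Ccpg1 from 60.3 ± 4.88 to 29.7 ± 5.25 CPM. Atl3 rose from 137 ± 5.50 to 207 ± 7.23 CPM. Calls in these lists are by edgeR adjusted p below 0.05, beside 30.8% of all tested genes higher and 32.7% lower.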
